A study of Mus musculus with 15 samples.

Results

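The genes described here encode the proteins of the mitochondrial ribosome and are named Mrpl, for the large subunit, and Mrps, for the small subunit. Every protein-coding gene of the GENCODE M21 annotation whose symbol starts with Mrpl or Mrps and a number was taken, which gave 78 genes of the 34910 whose transcripts are in the deposited count table. All 78 passed the filter on low counts, among 15141 genes tested. RNA was sequenced from wild-type mouse neural progenitor cells, the dividing precursors of neurons and glia, kept with FGF2, EGF and heparin. In all groups the cells received plasmids with an shRNA, a hairpin that lowers RNAs of matching sequence, and EGFP, and after 3 days the cells with GFP were sorted. The 5 groups of 3 libraries were shControl, shLINE_Orf1, shLINE_Orf2, shLINE_MdV_I and shLINE_Orf1+LINE-1, in which a full-length LINE-1 was given together with the shLINE_Orf1 hairpin. LINE-1 elements are retrotransposons, and per the series' design text the hairpins were aimed at young and at old elements. The labels tie the added LINE-1, and with it the young elements, to shLINE_Orf1, and do not say which elements shLINE_Orf2 and shLINE_MdV_I match. They do not say that the 3 libraries of a group came from separate cultures either, so the spread behind each p-value is the spread between these libraries and may be technical. LINE-1 RNA was not analysed here, and the depth of the knockdown is therefore not known for any library.

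The mitochondrial ribosome is a separate ribosome inside mitochondria. It translates the few mRNAs of the mitochondrial genome, which encode core subunits of the respiratory chain and of ATP synthase, while its own proteins are encoded in the nucleus, made in the cytosol and imported. Its rRNAs come from the mitochondrial genome. Of the 78 genes, 51 encode proteins of the large subunit and 26 of the small subunit. Mrps18a and Mrps30 are counted with the large subunit, where their proteins sit despite the names. The product of Mrps36 is now placed in the alpha-ketoglutarate dehydrogenase complex and was kept apart. By the grouping used here, 29 genes of the large and 16 of the small subunit encode proteins with a relative in the bacterial ribosome. The other 22 and 10 genes were counted as without a bacterial relative. That count leaves aside relatives outside the ribosome and may leave aside some within it. Of the Mrps18 genes, only Mrps18c was counted as having one.

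The libraries shLINE_Orf1 replicate 1 and shControl replicate 2 stood apart, and log2 fold changes that moved by over 1.5 times without them are given with and without them. Gene counts per library lay between 39204327 and 51070601. Ranked over genes, shLINE_Orf1 replicate 1 had a median correlation (Spearman) of 0.974 with the others, and the remaining libraries had between 0.989 and 0.994. That library had 3.61% of its counts in mitochondrially encoded mRNAs and 5.88% in Lars2, and shControl replicate 2 had 2.02% and 4.62%, against 1.36% to 1.97% and 2.60% to 3.82% in the other 13. Lars2 is 1 of the 20 mitochondrial aminoacyl-tRNA synthetase genes listed further down, and the origin of its large share was not tested. In both libraries short genes were higher than in the rest, with a rank correlation between exonic length and the deviation of a gene of -0.41 in shLINE_Orf1 replicate 1 and -0.39 in shControl replicate 2, over the genes tested. In shControl replicate 1 long genes were higher, with a correlation of 0.37, and in the other 12 libraries it lay between -0.24 and 0.21. CPM are counts relative to the scaled size of the library, except that the sums of cell type markers use the unscaled size. The sum of 5 progenitor markers lay between 744.64 and 1536.74 CPM in shLINE_Orf1, against 1229.9 to 1546.52 CPM in all libraries of the other groups. Of the 5, Hes5 had a higher group mean in shLINE_Orf1 than in shControl (35.9 against 28.2 CPM). Olig2, Nes, Sox2 and Pax6 had a lower one, for Pax6 by little (18.4 against 18.6 CPM). Neuronal markers summed to 27.72 to 35.06 CPM in shLINE_MdV_I, against 19.33 to 22.51 CPM in shControl and 15.2 to 25.55 CPM in the other groups, and edgeR called 1 of the 4 that passed the filter for any difference among the groups. Astrocyte markers summed to 279.5 to 305.46 CPM in shLINE_Orf1+LINE-1 and to 239.39 to 334.27 CPM in shLINE_Orf1, against 231.63 to 242.46 CPM in shControl. In shLINE_Orf2 they summed to 235.81 to 292.35 CPM and in shLINE_MdV_I to 241.08 to 274.91 CPM, with none of 3 called. Most of this sum was Aldh1l1, with a group mean of 279 CPM in shLINE_Orf1+LINE-1 and 229 CPM in shControl. In the same 2 groups Gfap was at 5.10 and 3.52 CPM and Aqp4 at 4.67 and 4.69 CPM. Microglial markers summed to at most 0.67 CPM, with Aif1 at 0. In bulk RNA, fewer cells of a type and less RNA per cell cannot be told apart.

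Levels of the genes were compared per transcript length, as TPM. They spanned a 19.3-fold range of means over the 15 libraries. Mrps6, a small-subunit protein with a bacterial relative, was highest at 618 ± 70.5 TPM (mean ± SD over 15 libraries of all groups), between 510 and 737 TPM. Mrpl42 followed at 489 TPM and Mrpl17 at 338 TPM. Mrps33 (321 TPM), Mrpl12 (314 TPM), Mrpl18 (312 TPM), Mrpl28 (306 TPM) and Mrpl20 (304 TPM) came next, and these neighbours differed by less than 1 SD. The lowest were Mrpl44, an RNase III-like protein of the large subunit, at 32.0 ± 1.65 TPM and Mrpl1 at 34.3 ± 5.09 TPM, with Mrpl19 (36.5 TPM), Mrpl11 (38.4 TPM) and Mrps30 (40.8 TPM) above them. The median was 146 TPM for the large and 122 TPM for the small subunit. By the same measure the median was 830 TPM for 80 genes of cytosolic ribosomal proteins, 540 TPM for 83 nuclear genes of oxidative phosphorylation and 25.4 TPM for 23 genes of mitochondrial ribosome assembly. In Mrpl11, Mrpl16, Mrpl28, Mrpl40, Mrpl43, Mrpl49 and Mrps27 at least 1 transcript had a newer version in the annotation than in the table, so the length behind its TPM may differ from that of the counted transcript.

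**Figure D1:**
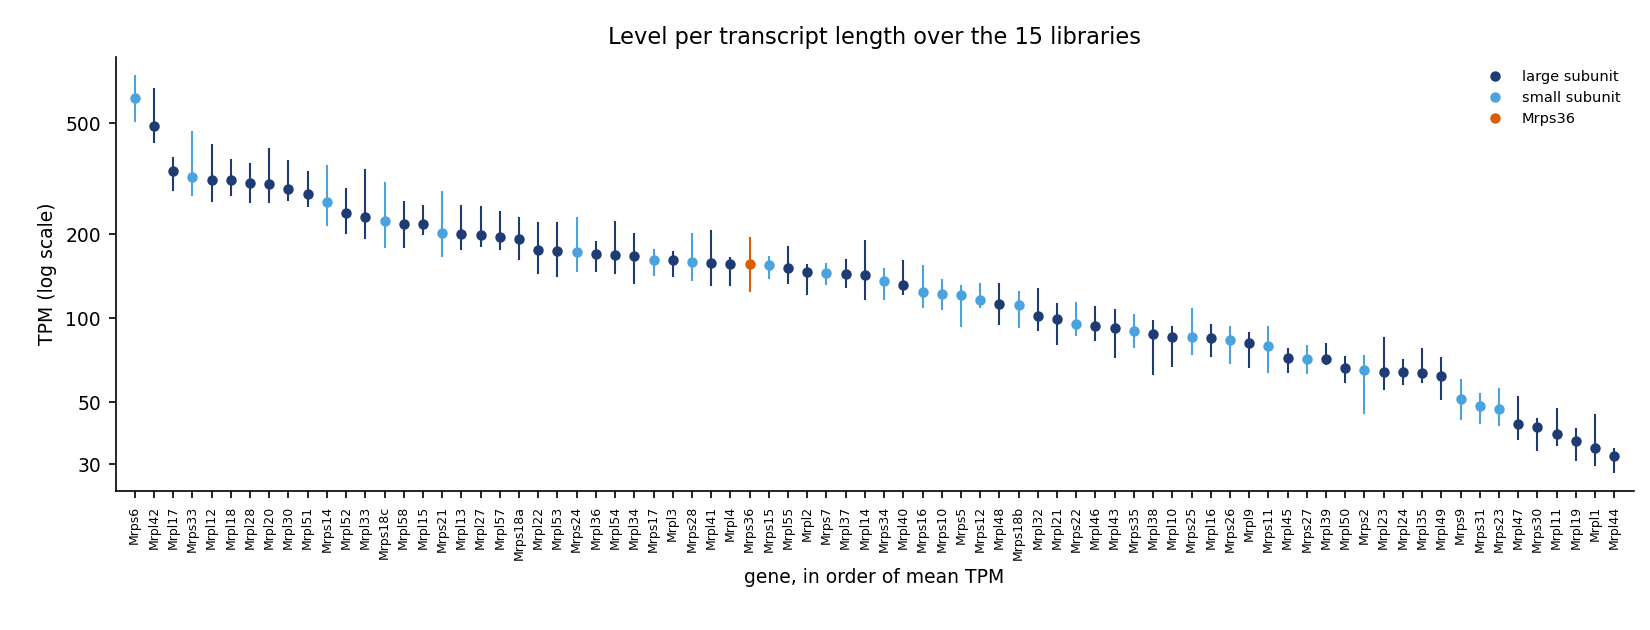
Mean TPM over the 15 libraries of each of the 78 genes on a log scale, in falling order (points), with lines from the lowest to the highest library and colours for the subunit. The means fall from 618 TPM for Mrps6 to 32.0 TPM for Mrpl44, and the 2 subunits are mixed along the order.

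Counts of a gene came from several transcripts. The 78 genes had 329 transcripts in the table, 39 genes had over 90% of their counts in 1 transcript and 7 had less than 50% in any. In 9 genes, Mrpl15, Mrpl3, Mrpl32, Mrpl51, Mrpl57, Mrps14, Mrps16, Mrps24 and Mrps26, the transcript with the most counts was not annotated as protein coding. Transcripts that are not protein coding held between 13.92% and 15.01% of the genes' counts in each library. Of 5 pseudogenes that match the naming pattern, Mrpl23-ps1 had a mean of 58.2 CPM, while Mrpl23 itself reached at most 47.7 CPM, so the level of Mrpl23 is uncertain. A gene on the opposite strand overlapped exons of 20 genes. The labels do not say that strand was kept, so reads of those partners cannot be told apart where they overlap.

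The 78 genes lie on 17 chromosomes, with 11 of them on chromosome 11. Of the 78, 33 (42.3%) have a start within 1000 bases of the start of a protein-coding gene on the opposite strand, against 10.9% of all 21909 protein-coding genes, tested here or not. Several of these neighbours serve mitochondria too: Mrpl36 lies beside Ndufs6, Mrpl47 beside Ndufb5, Mrps12 beside Sars2, Mrpl43 beside Twnk, and Mrpl46 beside Mrps11. Mrpl49 starts 59 bases from Fau, a fusion gene of ubiquitin-like protein and cytosolic ribosomal protein S30.

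Promoter sequences were available for 69 of the 78 genes, as 75 windows of 250 bases before to 50 after a start (RefSeq, build GRCm38.p6). Motifs of 3 factors known for nuclear genes of mitochondria were searched on both strands: the NRF1 motif, given by name only, CCGGAAG for the ETS family that includes GABPA, and AAGATGGCG for YY1. The NRF1 letters were in 17.3% of the 75 windows and in 4.60% of all 32851 windows, the ETS letters in 34.7% and 8.86%, and the YY1 letters in 10.7% and 1.40%. At least 1 of the 3 was in 54.7% of the windows and in 13.6% of all. The motifs CCAATC (20% against 16.1%), GGGCGG (52.0% against 35.7%) and CACGTG (9.33% against 7.15%) were searched in the same way, and GGGCGG can overlap other GC-rich motifs. The 32851 windows were not limited to genes tested here, and the shares among tested genes were not computed. A match is a run of letters and was not tested for binding. The windows of Mrps6 and Mrpl49 held none of the first 3.

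The 150 bases before the start are shown for 3 genes that follow the common pattern across libraries described next, for Mrps22 as a small-subunit example with an ETS match, and for Mrpl10, the gene that varied least, with no match. Whether a match goes with the pattern was not tested. The SD of log2 CPM over the 15 libraries was 0.278 in Mrpl34 and 0.075 in Mrpl10. It was 0.307 in Mrps14 and 0.299 in Mrpl41, both with no match, and 0.139 in Mrpl44, with an NRF1 match. Capitals mark matches to the NRF1 motif in Mrpl12 (chr11:120484487-120484636, plus strand) and Mrpl45 (chr11:97315566-97315715, plus strand). They mark matches to the ETS motif in Mrpl34 (chr8:71464776-71464925, plus strand) and Mrps22 (chr9:98601680-98601829, minus strand), and Mrpl10 lies at chr11:97041432-97041581 on the plus strand.
Mrpl12: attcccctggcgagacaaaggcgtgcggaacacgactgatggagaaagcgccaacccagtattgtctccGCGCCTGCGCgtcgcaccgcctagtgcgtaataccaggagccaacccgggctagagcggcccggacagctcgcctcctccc
Mrpl45: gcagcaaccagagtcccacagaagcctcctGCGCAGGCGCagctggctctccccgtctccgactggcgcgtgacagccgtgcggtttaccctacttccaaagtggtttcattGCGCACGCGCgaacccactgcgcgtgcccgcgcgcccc
Mrpl34: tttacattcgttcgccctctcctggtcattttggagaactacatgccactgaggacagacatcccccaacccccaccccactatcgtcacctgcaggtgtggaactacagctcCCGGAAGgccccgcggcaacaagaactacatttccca
Mrps22: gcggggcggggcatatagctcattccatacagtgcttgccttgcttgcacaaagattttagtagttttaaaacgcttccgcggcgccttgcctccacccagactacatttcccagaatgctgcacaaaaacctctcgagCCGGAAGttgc
Mrpl10: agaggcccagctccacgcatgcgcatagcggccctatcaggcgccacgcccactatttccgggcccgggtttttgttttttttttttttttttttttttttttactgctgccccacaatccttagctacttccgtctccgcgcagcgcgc

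Across libraries the 78 genes varied together. Averaged over them, log2 CPM relative to the mean of the 3 shControl libraries was -0.23, 0.31 and -0.09 in shControl replicates 1, 2 and 3, and 0.64, -0.08 and 0.14 in shLINE_Orf1. It was -0.06, -0.06 and 0.09 in shLINE_Orf2, -0.07, -0.06 and 0.05 in shLINE_MdV_I, and -0.05, -0.00 and 0.03 in shLINE_Orf1+LINE-1. The 3 shControl libraries thus spanned 0.54, and all other libraries but shLINE_Orf1 replicate 1 lay within their range. Of the 78 genes, 70 were highest in shLINE_Orf1 replicate 1 and 6 in shControl replicate 2, and 61 were lowest in shControl replicate 1. Both subunits shared this: in shLINE_Orf1 replicate 1 the mean was 0.66 for the large and 0.59 for the small subunit, and in shControl replicate 2 it was 0.32 and 0.30. The genes held 0.599% of all counts in shControl replicate 1 and 0.912% in shLINE_Orf1 replicate 1.

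**Figure D2:**
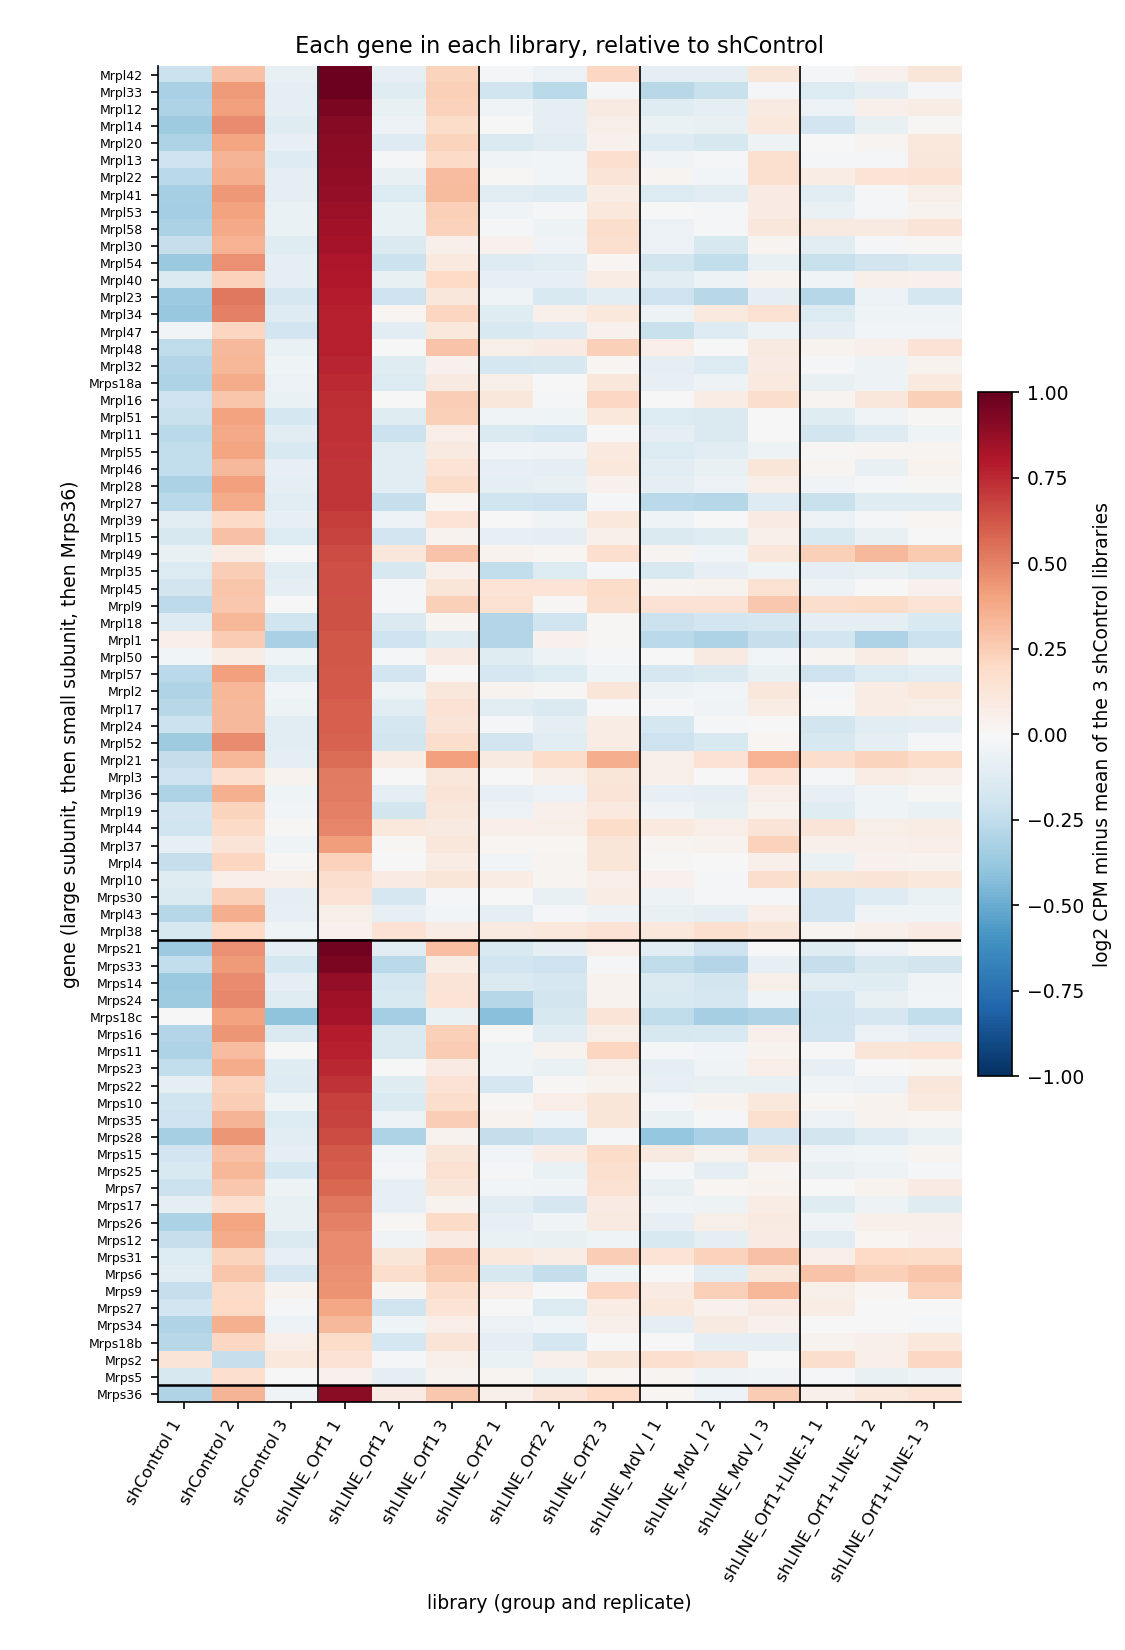
Log2 CPM of each of the 78 genes (rows) in each of the 15 libraries (columns) minus the gene's mean over the 3 shControl libraries, red where higher and blue where lower, with colours limited to 1 in either direction. Rows are large-subunit genes, small-subunit genes and Mrps36, each ordered by shLINE_Orf1 replicate 1, whose column is red for nearly every gene. Mrpl38, Mrps5 and Mrpl43 are nearest to 0 there.

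Other gene groups deviated in the same libraries. In shLINE_Orf1 replicate 1 the mean deviation was 0.80 for nuclear genes of oxidative phosphorylation, 0.79 for cytosolic ribosomal proteins, 1.26 for 12 mitochondrially encoded mRNAs and 0.61 for 5 proteins of the mitochondrial ribosome with other symbols. In shControl replicate 2 these 4 groups were at 0.40, 0.43, 0.35 and 0.28. Genes that act on the mitochondrial ribosome deviated less in shLINE_Orf1 replicate 1, with 0.19 for 23 assembly and rRNA modification factors, 0.30 for 14 translation factors and 0.13 for 20 aminoacyl-tRNA synthetases. Genes for the transcription and maintenance of mitochondrial DNA were at -0.08. The exons of an Mrpl or Mrps gene add up to 2394 bases at the median, against 4334 bases over all genes tested, and 19 of the 78 exceed the latter. Whether the length trend of these libraries set the deviations was not tested.

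**Figure D3:**
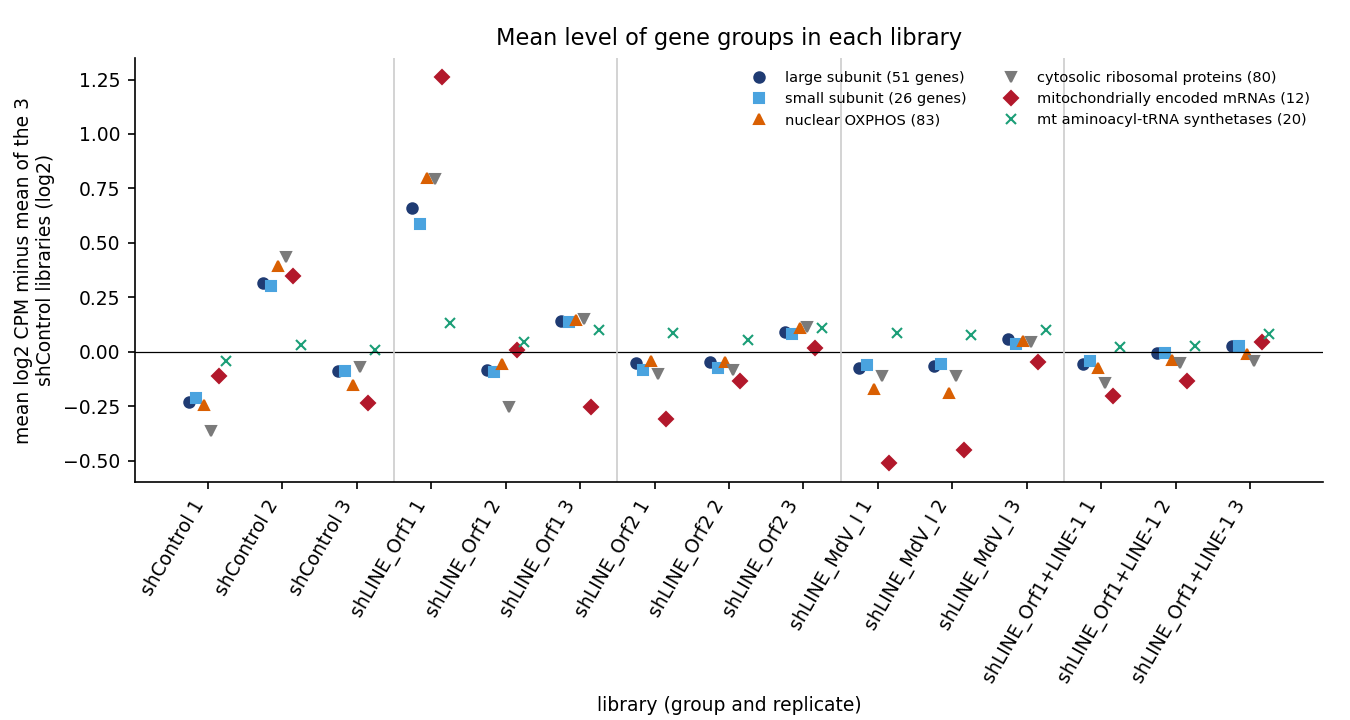
Mean log2 CPM of 6 gene groups in each of the 15 libraries, minus the mean of the 3 shControl libraries, with 1 symbol per gene group. Large-subunit and small-subunit genes lie beside each other in every library and share the high values of shControl replicate 2 and shLINE_Orf1 replicate 1, where nuclear oxidative phosphorylation genes (OXPHOS) reach 0.80 and aminoacyl-tRNA synthetases 0.13.

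Genes differed in how strongly they followed this pattern. Mrpl33, a small protein of the large subunit with a bacterial relative, varied most, with an SD of log2 CPM of 0.337 over the 15 libraries, as did Mrps18c (0.337), Mrps33 (0.331) and Mrps21 (0.325). Without the 2 libraries that stood apart their SDs were 0.149, 0.160, 0.106 and 0.155. Mrpl33 was at 54.0, 90.6 and 63.1 CPM in shControl, at 133, 62.2 and 79.7 CPM in shLINE_Orf1, and between 55.8 and 67.1 CPM in the other 9 libraries. Mrps21 was at 41.8, 73.7 and 50.1 CPM in shControl and at 105, 49.6 and 66.2 CPM in shLINE_Orf1. In both genes the range of shLINE_Orf1 overlaps that of shControl. At the other end, Mrpl10, which anchors the stalk of the large subunit with Mrpl12, had an SD of 0.075. Mrps5, the relative of bacterial S5 in the small subunit, had 0.076, and Mrpl38, of the central protuberance, had 0.089. Mrpl12, the partner of Mrpl10 in the stalk, followed the pattern instead: it was at 180, 297 and 209 CPM in shControl and at 429, 212 and 263 CPM in shLINE_Orf1. The median SD within groups was 0.226 for the 78 genes and 0.221 for all genes tested.

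The 5 groups were compared for any difference with edgeR's quasi-likelihood test, in 1 model of all 15 libraries, and a gene was called at a Benjamini-Hochberg adjusted p under 0.05 over all genes tested. None of the 78 genes was called, against 0.944% of all genes tested. Mrps6 (edgeR adjusted p = 0.205) and Mrpl49 (edgeR adjusted p = 0.320) had an unadjusted p under 0.05, 2 of 78 against 12% of all genes. DESeq2 called 1, Mrps6, and limma-voom, run with a quality weight for each library, called 2, Mrps6 and Mrpl49. For these 2 tools, here and below, the shares of all genes are not given. Their counts therefore cannot be set against the edgeR shares. None of the 78 was called in any of the 10 pairwise comparisons by edgeR, and leaving out any 1 library gave no call either.

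The comparison of shLINE_Orf1 with shControl asks what the hairpin against young LINE-1 did. The 78 genes had a median log2 fold change of 0.26, with 75 of 78 above 0, against a median of -0.01 and 48.6% above 0 for all genes tested. None was called (0.178% of all genes), and 7 had an unadjusted p under 0.05, against 10.5% of all. DESeq2 called 0, with 9 at an unadjusted p under 0.05, and limma-voom called 4: Mrpl21, Mrpl49, Mrps31 and Mrps6. How many of all genes limma-voom called is not given here, so whether 4 of 78 is many cannot be said. The median was 0.01 without shLINE_Orf1 replicate 1, with 45 genes above 0, 0.43 without shControl replicate 2, and 0.18 without both. Only Mrpl10 and Mrpl49 were higher in every shLINE_Orf1 library than in every shControl library, 2 of 78 against 4.88% of all genes, and none was lower in every library (4.40%). Mrpl43 (-0.04), Mrps30 (-0.02) and Mrps5 (-0.01) were the 3 with a log2 fold change below 0, and without both libraries they were at 0.12, 0.024 and 0.045.

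Mrpl49, a large-subunit protein without a bacterial relative, was at 54.9, 60.7 and 57.5 CPM in shControl and at 90.5, 62.5 and 70.4 CPM in shLINE_Orf1. It was at 67.9, 72.4 and 69.1 CPM in shLINE_Orf1+LINE-1, and between 56.5 and 64.9 CPM in shLINE_Orf2 and shLINE_MdV_I. All libraries of the 2 groups with the shLINE_Orf1 hairpin were thus above all of shControl, while those of the other hairpins overlapped shControl. Its log2 fold change from shControl was 0.37 ± 0.12 (SE, edgeR adjusted p = 0.306) in shLINE_Orf1 and 0.27 ± 0.12 (edgeR adjusted p = 0.513) in shLINE_Orf1+LINE-1. The former was 0.20 without shLINE_Orf1 replicate 1. Without the 2 libraries that stood apart, the latter was 0.32 with an edgeR adjusted p of 0.0489. Exons of Mrpl49 overlap Syvn1 on the opposite strand, which was at 21.6 CPM.

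Mrps31, a small-subunit protein without a bacterial relative, was at 35.5, 45.5 and 37.0 CPM in shControl and at 54.2, 42.6 and 47.7 CPM in shLINE_Orf1. The other 9 libraries lay between 40.9 and 47.9 CPM, so every group overlapped shControl. Its log2 fold change from shControl was 0.29 ± 0.12 (SE, edgeR adjusted p = 0.419) in shLINE_Orf1 and 0.21 ± 0.11 (edgeR adjusted p = 0.670) in shLINE_MdV_I. The former was 0.19 without shLINE_Orf1 replicate 1, and the latter 0.33 without shControl replicate 2. Mrpl10 was at 75.1, 85.2 and 84.8 CPM in shControl, at 92.01, 86.46 and 88.73 CPM in shLINE_Orf1 and at 88.95, 89.35 and 87.98 CPM in shLINE_Orf1+LINE-1. It was thus apart from shControl in both, by a log2 fold change of 0.12 ± 0.08 in each (edgeR adjusted p = 0.568 and 0.765).

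Genes with set roles followed the library pattern to different degrees, and edgeR called none of them. Mrpl58, the peptidyl-tRNA hydrolase of the large subunit, was at 70.6, 115 and 84.3 CPM in shControl and at 158, 84.3 and 103 CPM in shLINE_Orf1 (log2 fold change 0.36 ± 0.19). Mrps36, of the alpha-ketoglutarate dehydrogenase complex, had the largest log2 fold change of the 78 in this comparison, 0.44 ± 0.19 (edgeR adjusted p = 0.439). Mrpl45, which holds the large subunit at the inner membrane, was at 0.26 ± 0.15, Mrpl44 at 0.23 ± 0.12, Mrpl11 of the stalk base at 0.22 ± 0.20 and Mrps12, a relative of the bacterial decoding protein S12, at 0.16 ± 0.15. Of the 3 genes named Mrps18, Mrps18a of the large subunit was at 0.26 ± 0.19, Mrps18c at 0.19 ± 0.25 and Mrps18b at 0.04 ± 0.12, and their errors overlap. The highest gene after Mrps6 in TPM, Mrpl42, was at 0.43 ± 0.21, and Mrpl47, a relative of bacterial L29, at 0.30 ± 0.17. All these values fell without shLINE_Orf1 replicate 1. Without it Mrps36 was at 0.15, Mrpl44 at 0.084, Mrpl42 at 0.058, Mrpl58 at 0.057 and Mrpl45 at 0.031. Below 0 without it were Mrps12 (-0.0059), Mrpl47 (-0.014), Mrps18b (-0.032), Mrps18a (-0.049), Mrpl11 (-0.099) and Mrps18c (-0.24). All rose without shControl replicate 2. Without both libraries, Mrps36 was at 0.34, Mrpl58 at 0.27, Mrpl42 at 0.22, Mrpl44 at 0.19 and Mrpl45 at 0.18. Mrps12 was then at 0.21, Mrps18a at 0.16, Mrpl11 at 0.11, Mrpl47 at 0.11, Mrps18b at 0.076 and Mrps18c at -0.0145.

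**Figure D4:**
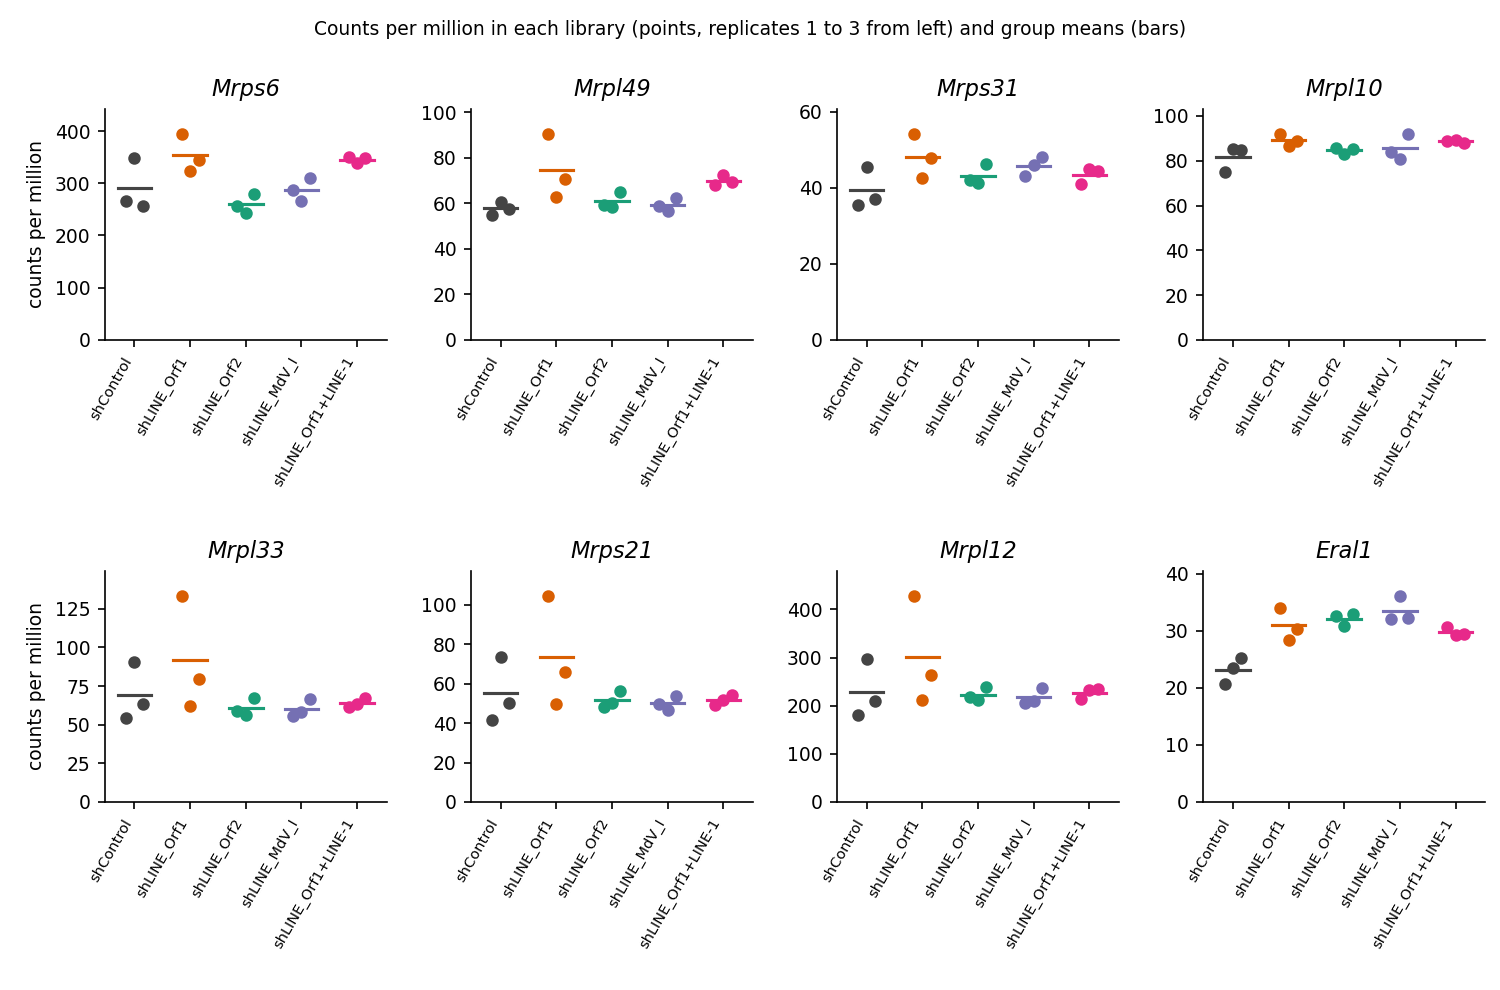
CPM in each library (points, replicates 1, 2 and 3 from left to right) and group means (bars) for 7 genes of the mitochondrial ribosome and the assembly factor Eral1, with axes from 0. Mrps6 is between 324 and 395 CPM in both groups with the shLINE_Orf1 hairpin and at 348 CPM in shControl replicate 2, Mrpl33, Mrps21 and Mrpl12 show the high shLINE_Orf1 replicate 1, and Eral1 is lowest in the 3 shControl libraries.

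The other hairpins gave medians near 0. In shLINE_Orf2 the median log2 fold change from shControl was -0.03, with 31 of 78 above 0. None was called (0.192% of all genes), and none had an unadjusted p under 0.05 (7.01% of all genes). No gene was apart from shControl in every library in either direction (6.90% higher and 5.12% lower among all genes). In shLINE_MdV_I the median was -0.04, with 25 of 78 above 0, none called (0.594%) and none with an unadjusted p under 0.05 (8.63%). None was apart from shControl there either (8.22% higher and 6.65% lower). DESeq2 and limma-voom called 0 in both comparisons, with 0 and 0 genes at an unadjusted p under 0.05 by DESeq2 and 4 and 5 by limma-voom. Without shControl replicate 2 the medians were 0.15 and 0.14, with 74 and 71 genes above 0, so their sign rests on that library.

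No single gene was called there. In shLINE_Orf2 the largest log2 fold changes among the 78 were 0.20 ± 0.15 for Mrpl21 and -0.19 ± 0.22 for Mrpl33. In shLINE_MdV_I they were 0.21 ± 0.11 for Mrps31 and -0.34 ± 0.21 for Mrps28, a relative of bacterial S1, with Mrps18c at -0.33 ± 0.25, Mrpl1 at -0.29 ± 0.19 and Mrps9 at 0.21 ± 0.13. Mrps28 was at 61.7, 106 and 72.1 CPM in shControl and at 59.6, 61.9 and 68.0 CPM in shLINE_MdV_I, so the groups overlap. Mrpl38 was at 0.11 ± 0.09 and 0.12 ± 0.09 in shLINE_Orf2 and shLINE_MdV_I, and Mrpl18 at -0.18 ± 0.17 and -0.21 ± 0.17. These values moved without shControl replicate 2: positive ones grew, and negative ones shrank or changed sign. In shLINE_Orf2, without that library, Mrpl21 was at 0.38, Mrpl38 at 0.21, Mrpl33 at 0.050 and Mrpl18 at 0.011. In shLINE_MdV_I, without that library, Mrps9 was at 0.31, Mrpl38 at 0.23, Mrpl18 at -0.022, Mrps28 at -0.082, Mrps18c at -0.11 and Mrpl1 at -0.16. The edgeR adjusted p was 0.670 or more for each of the 78 in shLINE_MdV_I and 0.956 or more in shLINE_Orf2.

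Adding LINE-1 to the shLINE_Orf1 hairpin asks whether expression returns once the element is supplied. Against shControl, the median log2 fold change in shLINE_Orf1+LINE-1 was -0.03, with 29 of 78 above 0. None was called (0.139% of all genes), and 1, Mrpl49, had an unadjusted p under 0.05 (8.76% of all genes). Mrpl10 and Mrpl49 were higher in every library (9.53% of all genes) and none was lower in every library (7.27%). The median without shControl replicate 2 was 0.15. DESeq2 called 0, with 1 gene at an unadjusted p under 0.05, and limma-voom called 2, Mrpl49 and Mrps6. Without both libraries that stood apart, edgeR called the same 2 genes. Mrpl1 (-0.26 ± 0.19) had the lowest value, and Mrpl54 was at -0.23 ± 0.22 and Mrps30 at -0.14 ± 0.11. Without shControl replicate 2 they were at -0.12, 0.035 and -0.0098.

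Against shLINE_Orf1, the 78 genes were lower in shLINE_Orf1+LINE-1 by a median log2 fold change of -0.29, with 2 of 78 above 0, Mrps2 (0.08 ± 0.10) and Mrps18b (0.01 ± 0.12). None was called (0% of all genes), and 7 had an unadjusted p under 0.05, against 11.1% of all. DESeq2 and limma-voom called 0, with 8 and 22 genes at an unadjusted p under 0.05. Mrpl33 (-0.52 ± 0.22), Mrps21 (-0.51 ± 0.22) and Mrps16 (-0.46 ± 0.20) had the smallest p, with an edgeR adjusted p of 0.422 in each. Without shLINE_Orf1 replicate 1 these 3 were at -0.15, -0.17 and -0.17, Mrps2 at 0.13 and Mrps18b at 0.079. Without it the median was -0.05, with 22 genes above 0 and none with an unadjusted p under 0.05. Mrpl34 alone was lower in every library (7.95% of all genes), and none was higher in every library (9.44%). This comparison and the one of shLINE_Orf1 with shControl share the shLINE_Orf1 libraries.

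**Figure D5:**
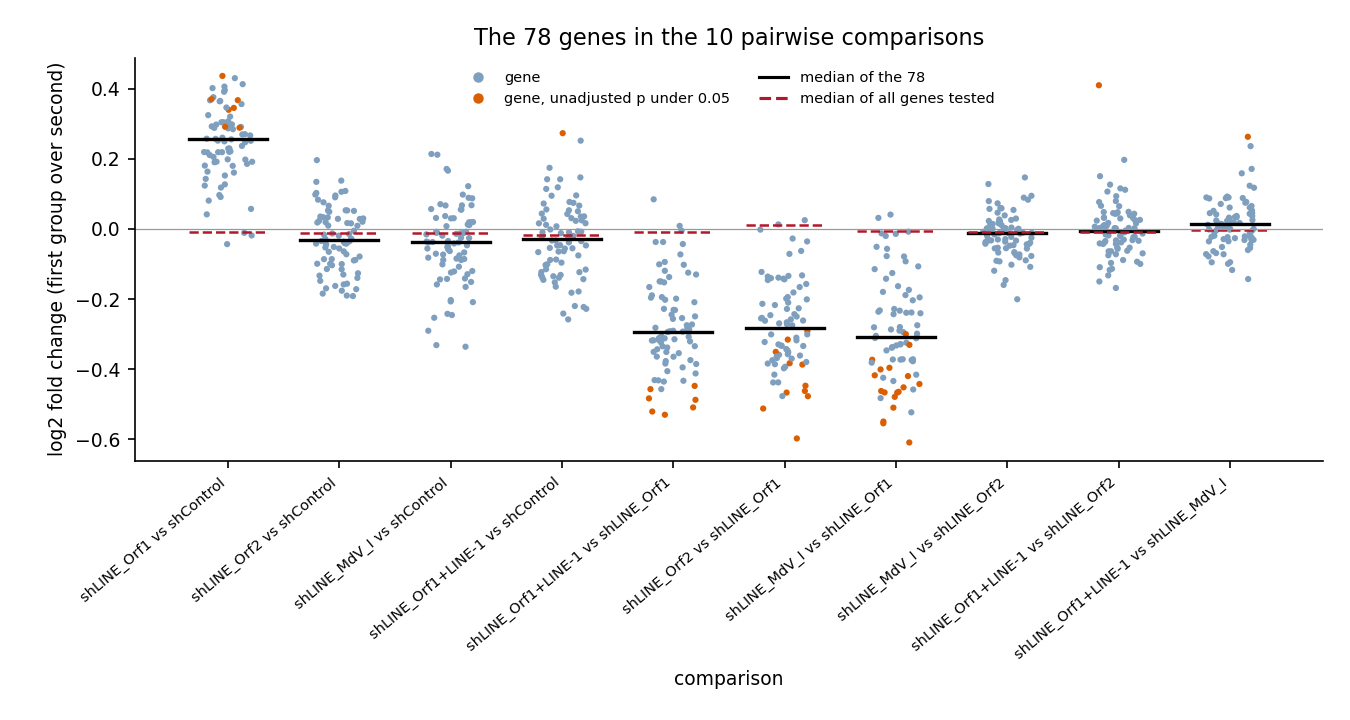
Log2 fold change of each of the 78 genes (points, orange at an unadjusted p under 0.05) in the 10 pairwise comparisons, with the median of the 78 (black line) and of all genes tested (red dashed line). The 4 comparisons that hold shLINE_Orf1 have medians of 0.26, -0.29, -0.28 and -0.31, and the other 6 have medians between -0.04 and 0.01.

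In the other 2 comparisons with shLINE_Orf1 the medians were -0.28 in shLINE_Orf2 and -0.31 in shLINE_MdV_I, and -0.04 and -0.05 without shLINE_Orf1 replicate 1. By edgeR none was called (0% and 0.687% of all genes), with 11 and 18 genes at an unadjusted p under 0.05, against 11.4% and 16.4% of all, and 1 and 0 without that library. Genes lower in every library were Mrpl10, Mrps12 and Mrps6 in shLINE_Orf2 (6.27% of all genes) and Mrpl1, Mrpl18, Mrpl49 and Mrps6 in shLINE_MdV_I (9.64% of all genes), and none was higher in every library (7.89% and 9.56% of all genes). DESeq2 called 1 gene in the first, Mrps6, and 0 in the second, and limma-voom called 2 and 9. Between shLINE_MdV_I and shLINE_Orf2 the median was -0.01, with none called (0.112%) and none at an unadjusted p under 0.05 (5.45%). DESeq2 and limma-voom called 0 there, with 0 and 1 genes at an unadjusted p under 0.05. Mrpl55 was the 1 gene lower in every shLINE_MdV_I library (8.54% of all genes), and none was higher (8.96%).

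Mrps6 was the gene with the smallest p for any difference among the groups. It was at 266, 348 and 256 CPM in shControl, at 395, 324 and 345 CPM in shLINE_Orf1, and at 350, 339 and 348 CPM in shLINE_Orf1+LINE-1. In shLINE_Orf2 it was at 257, 244 and 279 CPM and in shLINE_MdV_I at 287, 266 and 310 CPM. All 6 libraries with the shLINE_Orf1 hairpin were thus above all 6 with the other hairpins, and shControl overlapped both sets through its replicate 2. From shLINE_Orf1 to shLINE_Orf2 the log2 fold change was -0.45 ± 0.12 (SE, edgeR adjusted p = 0.255), and -0.36 without shLINE_Orf1 replicate 1. From shLINE_Orf2 to shLINE_Orf1+LINE-1 it was 0.41 ± 0.12 (edgeR adjusted p = 0.210), with an edgeR adjusted p of 0.00409 without the 2 libraries that stood apart and of 0.00206 when the fit held just these 2 groups. The table of transcripts gave 99.6% of its counts to 1 protein-coding transcript. Slc5a3, a transporter gene on the same strand that overlaps Mrps6, was at 98.9 CPM and had a log2 fold change of 0.08 ± 0.28 (edgeR adjusted p = 0.905) from shLINE_Orf1 to shLINE_Orf2. From shLINE_Orf2 to shLINE_Orf1+LINE-1 it was 0.36 ± 0.28 (edgeR adjusted p = 0.819), the direction and about the size of the value of Mrps6. By library, Slc5a3 was lowest in shLINE_Orf1 replicate 1 (52.4 CPM) and shControl replicate 2 (58.8 CPM), where Mrps6 was at 395 and 348 CPM. It was highest in shControl replicate 1 (146 CPM), where Mrps6 was at 266 CPM. What part Slc5a3 had in the counts of Mrps6 was not tested.

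The 2 remaining comparisons set shLINE_Orf1+LINE-1 against the other hairpins. Against shLINE_Orf2 the median was -0.00, with none called (0.238% of all genes) and 1 gene, Mrps6, at an unadjusted p under 0.05 (9% of all genes). There Mrpl10, Mrpl49, Mrpl50, Mrps18b and Mrps6 were higher in every library (13.5% of all genes) and Mrpl38, Mrpl45 and Mrpl54 lower (13%). Against shLINE_MdV_I the median was 0.01, with none called (0.680%) and again Mrps6 at an unadjusted p under 0.05 (0.26 ± 0.12, edgeR adjusted p = 0.559), against 8.5% of all genes. In that comparison 9 genes were higher in every library (13.7% of all genes), among them Mrps6, Mrpl49 and Mrps28, and 4 were lower (13.4%), Mrpl38, Mrps15, Mrps17 and Mrps30. DESeq2 called 0 in both, and limma-voom called Mrpl49 and Mrps6 in both.

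Genes that work with the mitochondrial ribosome were counted in the same fit. Of 23 assembly and rRNA modification factors, 1 was called in 1 of the 10 comparisons: Eral1, which binds the rRNA of the small subunit as it is assembled, rose in shLINE_MdV_I, where 0.594% of all genes were called. Eral1 was at 20.7, 23.5 and 25.2 CPM in shControl and at 32.0, 36.2 and 32.3 CPM in shLINE_MdV_I. It was at 34.0, 28.5 and 30.4 CPM in shLINE_Orf1, at 32.67, 30.89 and 32.95 CPM in shLINE_Orf2 and at 30.6, 29.2 and 29.5 CPM in shLINE_Orf1+LINE-1. All 12 libraries with a hairpin against LINE-1 were above all 3 of shControl. Of all genes tested, 4.88% were above shControl in every library of shLINE_Orf1 and 6.90% in shLINE_Orf2. In shLINE_MdV_I it was 8.22% and in shLINE_Orf1+LINE-1 9.53%, and the share for all 4 groups at once is not given here. The log2 fold change was 0.53 ± 0.10 (SE, edgeR adjusted p = 0.0256) in shLINE_MdV_I, 0.48 ± 0.10 (edgeR adjusted p = 0.0992) in shLINE_Orf2, 0.42 ± 0.10 (edgeR adjusted p = 0.137) in shLINE_Orf1 and 0.36 ± 0.10 (edgeR adjusted p = 0.234) in shLINE_Orf1+LINE-1. DESeq2 called Eral1 in shLINE_Orf2 (DESeq2 adjusted p = 0.00173), shLINE_Orf1 (0.00779) and shLINE_Orf1+LINE-1 (0.0366) too. By limma-voom it was called in shLINE_Orf2 (limma-voom adjusted p = 0.0222) and shLINE_Orf1 (0.0492). Without both libraries that stood apart, edgeR called it in shLINE_Orf2 (edgeR adjusted p = 0.0139) and shLINE_Orf1+LINE-1 (0.0489). The 4 comparisons share the shControl libraries. The call in shLINE_MdV_I was lost without shControl replicate 1 or 2, without any 1 of the 3 shLINE_MdV_I libraries, without shLINE_Orf1+LINE-1 replicate 2 and in 4 other settings, with an edgeR adjusted p between 0.0501 and 0.160, while the log2 fold change stayed between 0.43 and 0.61.

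The neuronal markers were also highest in shLINE_MdV_I, and their part in this result, and in that of Cox8b described next, was not tested.

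Other lists held few calls. None of 14 mitochondrial translation factors, 20 mitochondrial aminoacyl-tRNA synthetases, 18 genes of mitochondrial DNA transcription and maintenance, 12 mitochondrially encoded mRNAs, 80 cytosolic ribosomal proteins and 5 proteins of the mitochondrial ribosome with other symbols was called by edgeR in the 10 comparisons, in which 0% to 0.687% of all genes were called. In the test of all 5 groups the smallest p of these lists belonged to the elongation factor Gfm1 (edgeR adjusted p = 0.393), Wars2 (0.427), the transcription elongation factor Tefm (0.472), mt-Nd2 (0.437), Rps27l (0.495) and Aurkaip1 (0.262). Gfm1 was at 95.7 ± 7.40 CPM in shControl and at 118 ± 2.89 CPM in shLINE_Orf1+LINE-1 (mean ± SD, n = 3), the group where it was highest. Aurkaip1, a small-subunit protein, had a log2 fold change of -0.78 ± 0.19 from shLINE_Orf1 to shLINE_MdV_I (edgeR adjusted p = 0.0758). It was at 153, 84.8 and 105 CPM in shLINE_Orf1 and at 64.6, 65.5 and 69.4 CPM in shLINE_MdV_I. Without shLINE_Orf1 replicate 1 its log2 fold change was -0.51, and edgeR called it without either shControl replicate 2 or shLINE_Orf1 replicate 2. Aurkaip1 was also called by edgeR without both libraries that stood apart (edgeR adjusted p = 0.00751) and with the length trend removed (0.0178). The same held with a number in the library descriptions as a covariate (edgeR adjusted p = 0.011). DESeq2 (DESeq2 adjusted p = 0.00715) and limma-voom (limma-voom adjusted p = 0.000155) called it too. Of 83 nuclear genes of oxidative phosphorylation, 1 was called in 2 comparisons, in which 0.594% and 0.687% of all genes were called. Cox8b fell in shLINE_MdV_I against shControl (-2.14 ± 0.41, edgeR adjusted p = 0.0238) and against shLINE_Orf1 (-1.94 ± 0.41, edgeR adjusted p = 0.0435), at a level of 0.26 to 2.10 CPM in all libraries. Both Cox8b calls were lost in many settings, the second also without shLINE_Orf1 replicate 1 (-1.45, edgeR adjusted p = 0.159).

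The authors' deposited table of a mixed model for an effect of young LINE-1 holds 77 of the 78 genes, all but Mrpl58, which encodes a peptidyl-tRNA hydrolase of the large subunit. In the authors' deposited table the estimate is above 0 for 28 and below 0 for 49 of them, while 60.9% of its 17921 genes are above 0. Of the 77, 3 have a p under 0.05 in the authors' deposited table, against 2.66% of all its genes: Mrpl40 (p = 0.0245), Mrpl53 (p = 0.048) and Mrpl23 (p = 0.0481). The adjusted p in the authors' deposited table is 1 for every gene.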

How the data were processed

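The authors deposited, for each transcript and library, an expected count, which is an estimated number of reads and is not normalized. The submitters' processing notes name cutadapt, RSEM and the build mm10, and no version, role, annotation or setting of these is given in the sources used here. Of 111462 transcripts, 110115 were matched to GENCODE M21 (GRCm38) by ID without version, 107618 of them with the same version. Their counts were summed to genes and rounded, and the 1347 unmatched transcripts (0.595% to 0.650% of a library's counts) and 1 blank row were left out. A second deposited table holds the authors' mixed model, with an estimate on an unnamed scale, a t score and a p-value per gene, per the file headers.

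Genes were filtered with filterByExpr of edgeR (minimum count 10), scaled with TMM and fitted in 1 quasi-likelihood model of 5 groups, with p-values adjusted by the Benjamini-Hochberg method over all 15141 genes. Across genes, the biological coefficient of variation had a common value of 0.158. The limma-voom fit gave each library a quality weight, so that libraries that varied more counted less. CPM divide a count by the library size after TMM scaling, log2 CPM used a prior count of 2, and TPM are counts per transcript length, scaled to 1 total for all libraries. The sums of cell type markers and the mean CPM of Mrpl23-ps1, Syvn1 and Slc5a3 used the library size without TMM scaling. Groups came from the sample titles. No replicate pair agreed within counting noise (chi-square per degree of freedom of 6.96 to 242). The scripts were tested on simulated data. The tools were R 4.3.3, edgeR 4.0.16, limma 3.58.1, DESeq2 1.42.0, statmod 1.5.0, numpy 2.4.6, pandas 2.3.3, matplotlib 3.10.9 and Python 3.11.15.

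The genes, the related lists, the motifs, the libraries left out and the alternatives were chosen with earlier results of these data known. Named genes were, per main comparison, the 3 of the 78 with the smallest p in each direction, the 5 with the smallest p for any difference, the 5 highest and lowest in TPM and a set fixed by role. Of each related list the rule takes the genes called and otherwise the gene with the smallest p for any difference. The comparisons of Mrps6 and Mrpl49 between hairpins, and genes apart in every library, were named after their values were seen. Longer and shorter spellings of the NRF1, ETS and YY1 motifs and 1 other motif were tried as well and are not reported here.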

Additional observations from a re-analysis of the deposited data

How the results depend on the processing

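The count of genes called by edgeR was 0 in every comparison when any 1 library was left out (lowest 0, highest 0), and it was also 0 with the replicate block, in which the replicate number of the titles was a term. Numbers did not pair the samples: 3 of 30 same-number pairs had deviations correlated above 0.1 (range -0.271 to 0.18), and 1 of 15 libraries correlated best with its own number. Counts above 0 were as follows. Their cause was not tested, and the share of all genes called in each of these settings is not given here. For any difference, DESeq2, removal of the trend with exonic length, and leaving out both libraries that stand apart gave 1 each and limma-voom 2. For shLINE_Orf1 against shControl limma-voom gave 4, and for shLINE_Orf1+LINE-1 against shControl it gave 2, as did leaving out both libraries. For shLINE_Orf2 against shLINE_Orf1 DESeq2 gave 1 and limma-voom 2. For shLINE_MdV_I against shLINE_Orf1 limma-voom gave 9, and 13 were called when a number in the library descriptions (1 or 12) was a covariate. That number is 12 for shLINE_Orf1 replicate 1 and for shLINE_MdV_I replicates 2 and 3, so it is largely confounded with these groups, and 1 for the other 12 libraries. For shLINE_Orf1+LINE-1 against shLINE_Orf2, removal of the length trend, only the compared groups, and leaving out both libraries gave 1 each and limma-voom 2. Against shLINE_MdV_I, limma-voom and only the compared groups gave 2 and leaving out both libraries 1.

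The median of the 78 in shLINE_MdV_I against shControl was -0.27 with the description number as a covariate. When 1 library was left out, the medians against shControl lay between 0.01 and 0.43 for shLINE_Orf1, between -0.12 and 0.15 for shLINE_Orf2, between -0.14 and 0.14 for shLINE_MdV_I and between -0.13 and 0.15 for shLINE_Orf1+LINE-1, and between -0.46 and -0.05 for shLINE_Orf1+LINE-1 against shLINE_Orf1. The ratio of the highest to the lowest level was 11.6 in CPM, which takes no account of length. With the length trend removed, the median was 0.20 in shLINE_Orf1 against shControl and -0.17 in shLINE_Orf1+LINE-1 against shLINE_Orf1.

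Of 1430 values of single genes under alternatives, 37 had the other sign, all of genes not called. In shLINE_Orf1 against shControl, Mrpl43 was at 0.038 by limma-voom and 0.12 without both libraries (-0.17 to 0.16 leaving out 1 library). Mrps30 was at 0.063 with the length trend removed, 0.034 by limma-voom and 0.024 without both libraries (-0.11 to 0.11), and Mrps5 at 0.065, 0.028 and 0.045 (-0.084 to 0.075). Without both libraries, Mrpl18 was at 0.012 (-0.27 to 0.011) and Mrps28 at 0.064 (-0.34 to 0.064) in shLINE_Orf2 against shControl, and Mrpl54 at 0.041 (-0.39 to 0.035) in shLINE_Orf1+LINE-1 against shControl. Mrps18b was at -0.026 by limma-voom in shLINE_Orf1+LINE-1 against shLINE_Orf1 (-0.094 to 0.079). In shLINE_Orf2 against shControl, Mrpl33 was at 0.050 without both libraries (-0.34 to 0.050).

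In shLINE_Orf1 against shControl, Mrps18b was at -0.046 with the length trend removed and -0.028 with no scaling factor (-0.079 to 0.15). Mrps18c was at -0.032 with the description number as a covariate, -0.014 with the length trend removed and -0.015 without both libraries (-0.24 to 0.42). When 1 library was left out, Mrpl11 lay between -0.099 and 0.43, Mrpl47 between -0.014 and 0.48, Mrps12 between -0.0059 and 0.38, and Mrps18a between -0.049 and 0.46.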
